A study of Homo sapiens with 7 samples.

Results

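The genes described here are 10 long noncoding RNA (lncRNA) genes that host small nucleolar RNA (snoRNA) genes: SNHG1, SNHG3, SNHG5, SNHG6, SNHG7, SNHG8, SNHG12, SNHG15, SNHG16 and GAS5. They were taken by name and not by a cutoff on any measured value, although the list was drawn up with earlier results of these data known. They make up 10 of the 47054 genes with a known place and strand in the RefSeq annotation of GRCh38.p14. Each was read over a window that begins 1 kb before the annotated gene start and closes 5 kb after the annotated gene end. The 10 genes hold 36 annotated snoRNA genes, of which 25 carry SNORD symbols (box C/D), 10 carry SNORA symbols (box H/ACA) and 1 has a LOC symbol only.

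A snoRNA host gene is transcribed by RNA polymerase II, and its snoRNAs are cut out of the introns after splicing. Box C/D snoRNAs guide ribose methylation of ribosomal RNA and box H/ACA snoRNAs guide its pseudouridylation, while the spliced host RNA is often short-lived. The promoters of many host genes begin with a run of pyrimidines, the start also found at ribosomal protein genes.

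The measurement was chromatin immunoprecipitation sequencing (ChIP-seq) with antibody 6D7, which recognizes threonine 4 phosphorylation (pThr4) in the repeats of the RNA polymerase II C-terminal domain. Fixed chromatin came from HEK293, an established human embryonic kidney cell line. Lysate of nuclei was divided, and aliquots were incubated in the test tube with wild-type SCP1, an active phosphatase (SCP1 WT, 3 biological replicates), or with SCP1 D96A, which has no catalytic activity (3 biological replicates), so the treatment acted on lysate and not on living cells. The comparison asks where pThr4 can be detected only after the phosphatase has acted on the neighboring serine 5. Negative control chromatin precipitated with IgG was not analysed here, nor was any cell marker, since peak lists hold no expression values.

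The data are 1 list of broad peaks per library, each peak with a position, a fold enrichment over background (a ratio) and a −log10 p-value. The lists contain no read counts, so depth is unknown. Lists with active SCP1 held 6680 to 36892 peaks and lists with inactive SCP1 held 1163 to 2699. Median −log10 p of a listed peak was 3.83 to 4.78 in the active and 5.33 to 5.92 in the inactive lists, so the active lists reach down to weaker peaks. Active replicate 3 had the longest list and is the library that stands apart. The part of list length in each difference below was not tested beyond the values given with lists of equal length. Those lists keep each peak with its deposited edges, so they do not make peak widths alike. Peak names show that replicates 1 and 2 of both groups share 1 run name and replicate 3 another, and values within replicates 1 and 2 are given beside the pooled ones, while replicate 3 alone has only 1 library per group. With 3 libraries a group, the two-sided exact permutation test over 20 assignments cannot give a p-value under 0.1.

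Nearly all host genes carried pThr4 peaks, and nearly all of these peaks lay at or behind the end of the gene. Each of the 10 windows held a peak in at least 1 library, for 54 peaks in all (28 in active and 26 in inactive libraries). Of these, 50 reached past the annotated gene end and 36 lay wholly behind it, 16 of 28 in the active and 20 of 26 in the inactive libraries. The window takes in 5 kb behind the end and only 1 kb before the start, so it favors peaks behind the end. No such count of peaks is given for other genes. Peaks with at least 1 base inside the gene numbered 11 with active and 6 with inactive SCP1. A single peak covered the outermost annotated start of a gene, that of SNHG7 in active replicate 3. The SNHG12 promoter start, which lies inside the annotated gene, also fell in peaks, in active replicates 1 and 3. Of the 54 peaks, 20 overlapped no annotated gene other than the host and its snoRNA genes, 11 with active and 9 with inactive SCP1. The signal of the other peaks cannot be divided between the host and its neighbors. In the map of peaks the common position just behind the gene end is visible for 8 of the 10 genes, with SNHG5 and SNHG8 as exceptions.

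**Figure D1:**
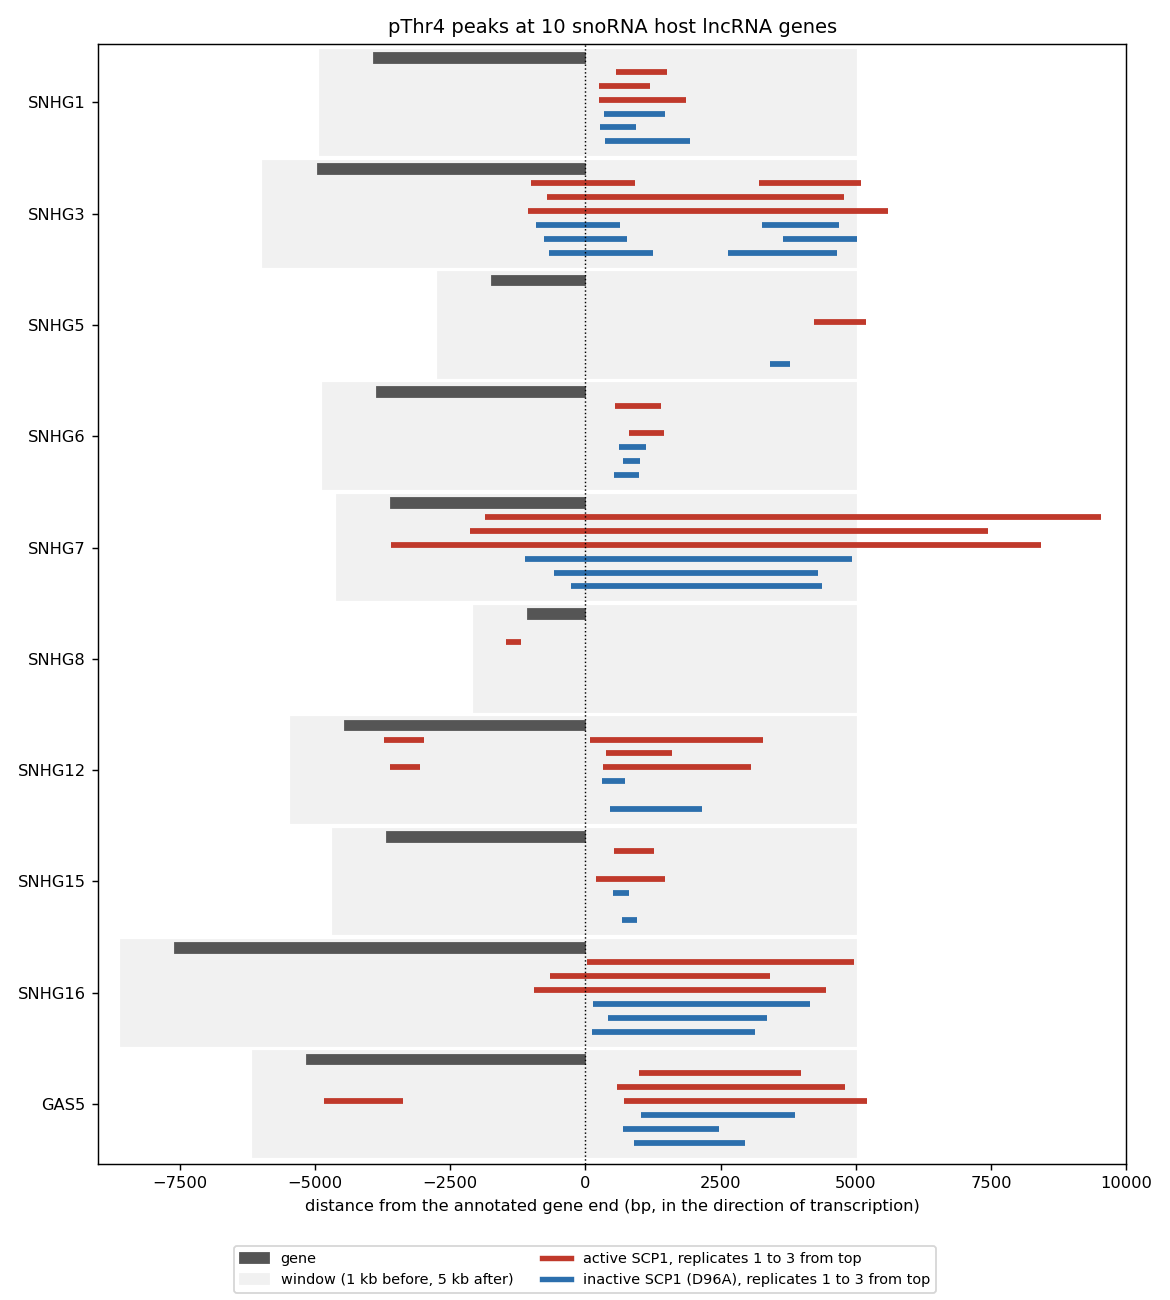
Each bar is 1 peak, drawn by its distance in bp from the annotated gene end in the direction of transcription (horizontal axis), with a row of bars per gene for SCP1 WT replicates 1 to 3 (red) and SCP1 D96A replicates 1 to 3 (blue). Dark bars are the genes and pale boxes the windows; 36 of the 54 peaks lie wholly to the right of the gene end, and the red SNHG7 bars reach furthest to the right, to 9536 bp in replicate 1.

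At the gene starts few peaks were found, and none in a library with inactive SCP1. RefSeq promoters, which span 250 bases before and 50 bases after the first transcribed base, were at hand for 8 of the 10 genes (not for SNHG6 and SNHG15). A peak touched the promoter of SNHG12 in active replicate 1, of SNHG8 in active replicate 2, and of SNHG7 and SNHG12 in active replicate 3. For comparison, a peak touched 4.06%, 2.41% and 11% of 34961 promoters in active replicates 1, 2 and 3 and 1.15%, 0.335% and 1.3% in inactive replicates 1, 2 and 3. With 8 promoters, a share of this size amounts to about 1 gene or none, and no test was made.

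The first transcribed bases of the 8 genes are shown because the starts of SNHG7, SNHG8 and SNHG12 are the places where promoter peaks were found. Each line gives 30 bases 5′ to 3′ on the gene's strand, 10 before and 20 from the first transcribed base on (RefSeq, GRCh38.p14). Capitals mark a run of C followed by at least 5 letters that are each C or T, with a C within 10 bases of the start, as far as the run falls within these bases.
SNHG3, chr1:28505933-28505962, + strand: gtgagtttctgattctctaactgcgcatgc
SNHG7, chr9:136728165-136728194, − strand: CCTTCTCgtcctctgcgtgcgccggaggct
SNHG8, chr4:118278752-118278781, + strand: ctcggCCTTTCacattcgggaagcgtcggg
SNHG12, chr1:28581854-28581883, − strand: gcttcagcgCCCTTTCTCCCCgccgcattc
SNHG1, chr11:62855866-62855895, − strand: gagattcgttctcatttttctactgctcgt
SNHG5, chr6:85678714-85678743, − strand: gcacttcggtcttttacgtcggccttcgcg
SNHG16, chr17:76557754-76557783, + strand: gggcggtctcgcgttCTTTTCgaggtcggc
GAS5, chr1:173869026-173869055, − strand: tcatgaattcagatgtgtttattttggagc

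By this search, made on the gene's strand only, 4 of the 8 promoters had the pyrimidine run (SNHG7, SNHG8, SNHG12 and SNHG16), against 20.8% of all 35116 promoters of the same length. The run of SNHG12 was the longest of the 4, with 12 bases. The letters TATAAA in the 50 bases before the start, also read on the gene's strand only, were found in SNHG7 alone (2.63% of all promoters), and CACGTG, which reads the same on both strands, was again found in SNHG7 alone (7.26% of all promoters). These are letters in a window and not measured sites.

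The promoter of SNHG12 was the only 1 of the 8 that lay wholly inside a peak, in active replicates 1 and 3. It spans chr1:28581824-28582123 on the − strand, and its first transcribed base lies inside the annotated gene, which has a further start upstream. Capitals mark the pyrimidine run at the start.
SNHG12 promoter: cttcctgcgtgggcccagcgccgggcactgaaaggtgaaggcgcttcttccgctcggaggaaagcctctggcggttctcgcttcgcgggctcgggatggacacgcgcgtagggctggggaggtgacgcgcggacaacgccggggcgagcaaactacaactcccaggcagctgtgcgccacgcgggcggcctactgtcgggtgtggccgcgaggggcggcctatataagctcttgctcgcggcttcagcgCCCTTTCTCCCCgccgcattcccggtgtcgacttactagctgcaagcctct

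Hosts of box H/ACA snoRNAs come first. SNHG7 (chr9:136724594-136728184, − strand) hosts SNORA17A and SNORA17B and had the widest peak of the 10 genes in every library. Its window was covered over 6853, 7136 and 8597 bp in active replicates 1, 2 and 3 and over 6045, 4886 and 4641 bp in inactive replicates 1, 2 and 3. All 3 active values lay above all 3 inactive ones. From the gene end, the active peaks reached 1853, 2136 and 3591 bp back into the gene and 9536, 7437 and 8416 bp beyond it. With inactive SCP1 they reached 1122, 578 and 266 bp back and 4923, 4308 and 4375 bp beyond. Thus both edges lay further out in every active library.

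The wider active peaks took in snoRNA genes of SNHG7. SNORA17B (chr9:136726104-136726237) lay whole within the peak in 3 of 3 active and 0 of 3 inactive libraries, and SNORA17A (chr9:136726747-136726879) in active replicate 3 alone. The fold enrichment of the SNHG7 peak was 5.64, 4.95 and 6.27 with active SCP1, and by −log10 p the peak stood above 98.9%, 96.9% and 99.6% of its own list. With inactive SCP1 the fold enrichment was 4.38, 4.3 and 5.07, and the peak stood above 86.2%, 79.7% and 93.7% of its list. Peaks carry no strand, and every SNHG7 peak also overlapped DIPK1B, a protein kinase family gene on the opposite strand, and LOC124900276, on the same strand with the same start, so the signal cannot be divided among these 3 genes.

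SNHG3 (chr1:28505943-28510892, + strand) hosts SNORA73A and SNORA73B and lies inside the span of RCC1, which encodes the guanine nucleotide exchange factor of the GTPase Ran. Its window was covered over 3722, 5500 and 6063 bp with active and 2992, 2884 and 3926 bp with inactive SCP1. The groups overlapped only in that active replicate 1 lay below inactive replicate 3. A first peak straddled the gene end and reached 669 to 1063 bp back into the gene in the 6 libraries. A second lay behind it, from 2643 bp or more after the gene end, in active replicate 1 and the 3 inactive libraries. In active replicates 2 and 3 a single peak of 5500 and 6648 bp spanned both places. Neither snoRNA gene was covered in any library, and all 10 peaks also overlapped RCC1. The highest fold enrichment was 4.22, 4.06 and 4.17 with active and 5.12, 4 and 4.05 with inactive SCP1.

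SNHG15 (chr7:44983023-44986696, − strand), the host of SNORA9, had short peaks behind its end. They covered 739, 0 and 1279 bp with active SCP1 and 296, 0 and 268 bp with inactive SCP1, so neither group showed a peak in replicate 2. All 4 peaks lay between 188 and 1466 bp after the gene end and overlapped no other annotated gene. Their fold enrichment was 3.2 and 3.24 in active replicates 1 and 3 and 3.87 and 4.54 in inactive replicates 1 and 3. The wider peaks with active SCP1 were the weaker ones in fold, though folds of different lists share no scale.

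SNHG8 (chr4:118278762-118279823, + strand), the host of SNORA24 and the shortest of the 10 genes at 1062 bp, was the only 1 without a peak behind its end. A single peak of 273 bp lay before its start in active replicate 2, at positions -398 to -126 bp from the first base, with a fold enrichment of 4.44, above 85.2% of its list by −log10 p. The other 5 libraries showed none.

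SNHG12 (chr1:28578538-28582983, − strand) hosts snoRNAs of both kinds, SNORA16A, SNORA44, SNORA61 and SNORD99. Its window was covered over 3935, 1216 and 3284 bp with active and 436, 0 and 1700 bp with inactive SCP1. The groups overlapped, because active replicate 2 lay below inactive replicate 3. Peaks behind the gene end began 93 to 450 bp after it in 5 libraries, and all of them also overlapped TRNAU1AP, a selenocysteine tRNA-associated protein gene that meets SNHG12 end to end. The peaks over the promoter shown above were 737 and 555 bp wide in active replicates 1 and 3, with fold enrichments of 3.12 and 2.85, and stood above only 52.6% and 47.8% of their lists by −log10 p. They left all 4 snoRNA genes uncovered.

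Among the hosts of box C/D snoRNAs, GAS5 and SNHG16 had the widest peaks. GAS5 (chr1:173863901-173869045, − strand), a growth arrest-associated gene whose RNA binds the glucocorticoid receptor, holds 11 of the 36 snoRNA genes, 10 of them SNORD genes and 1 SNORA103. Its window was covered over 2998, 4232 and 5763 bp with active and 2833, 1782 and 2062 bp with inactive SCP1. All active values lay above all inactive ones, though active replicate 1 and inactive replicate 1 were close. The main peak lay free of the gene in every library and began 575 to 1036 bp after its end. It ran to 3992, 4806 and 5204 bp after the end with active and 3868, 2477 and 2955 bp with inactive SCP1. Fold enrichment was 5.32, 4.26 and 4.4 with active and 4.22, 4.34 and 4.39 with inactive SCP1. In active replicate 2 the main peak also overlapped GAS5-AS1, an antisense gene.

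Active replicate 3 held a second GAS5 peak, 308 to 1774 bp after the gene start. It covered SNORD74 (chr1:173867674-173867745) and overlapped ZBTB37, a zinc finger gene that starts there on the opposite strand. Its fold enrichment was 2.95, and it stood above 21.3% of its list by −log10 p. The other 10 snoRNA genes of GAS5 were covered in no library.

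SNHG16 (chr17:76557764-76565348, + strand), the host of SNORD1A, SNORD1B and SNORD1C, was covered over 4942, 4065 and 5392 bp with active and 4019, 2947 and 3017 bp with inactive SCP1. The groups did not overlap, although active replicate 2 and inactive replicate 1 were close. Active replicates 2 and 3 reached 650 and 946 bp back into the gene. The peaks of the other 4 libraries began 30 to 417 bp after its end. By −log10 p the active peaks stood above 95.2%, 92.1% and 99.3% of their lists and the inactive peaks above 78.5%, 58.2% and 83.2%. ST6GALNAC2, a sialyltransferase gene, was overlapped by all 6 peaks.

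SNHG1 (chr11:62851978-62855885, − strand) hosts SNORD22, SNORD25 to SNORD31 without a gap, and LOC124900306, and showed no such difference. It was covered over 942, 932 and 1603 bp with active and 1144, 665 and 1575 bp with inactive SCP1, so the groups interleaved. All 6 peaks began 254 to 573 bp after the gene end and overlapped no other annotated gene. Fold enrichment was 4.4, 3.59 and 4.27 with active and 3.9, 3.71 and 3.84 with inactive SCP1. None of its 9 snoRNA genes was covered.

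SNHG6 and SNHG5 had few or short peaks. SNHG6 (chromosome 8, − strand), the host of SNORD87, was covered over 856, 0 and 651 bp with active and 510, 315 and 466 bp with inactive SCP1. Its 5 peaks lay 526 to 1451 bp after the gene end and overlapped MCMDC2. Fold enrichment was 4.51 and 3.27 in active replicates 1 and 3 and 5.84, 5.64 and 3.69 in inactive replicates 1, 2 and 3. By fold, the inactive peaks stood above 97.4%, 97.2% and 34.4% of their lists, so the third was far lower in place than the other two. SNHG5 (chr6:85677007-85678733, − strand), the host of SNORD50A and SNORD50B, had 1 peak in active replicate 3 (4222 to 5189 bp after the gene end, fold enrichment 2.91) and 1 in inactive replicate 3 (3409 to 3773 bp, 3.59), which did not overlap each other.

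**Figure D2:**
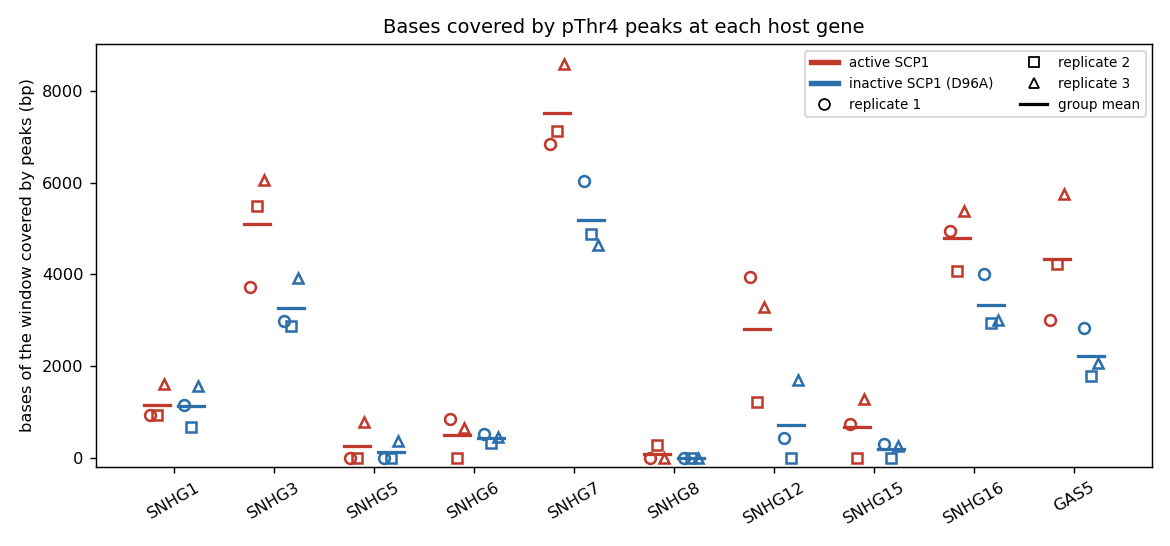
Bases of each gene's window covered by peaks (vertical axis, bp) in each library, with SCP1 WT in red, SCP1 D96A in blue, a marker shape per replicate and a short line at each group mean. SNHG7, SNHG16 and GAS5 are the genes whose 3 WT values all lie above their 3 D96A values, while SNHG1 interleaves.

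**Figure D3:**
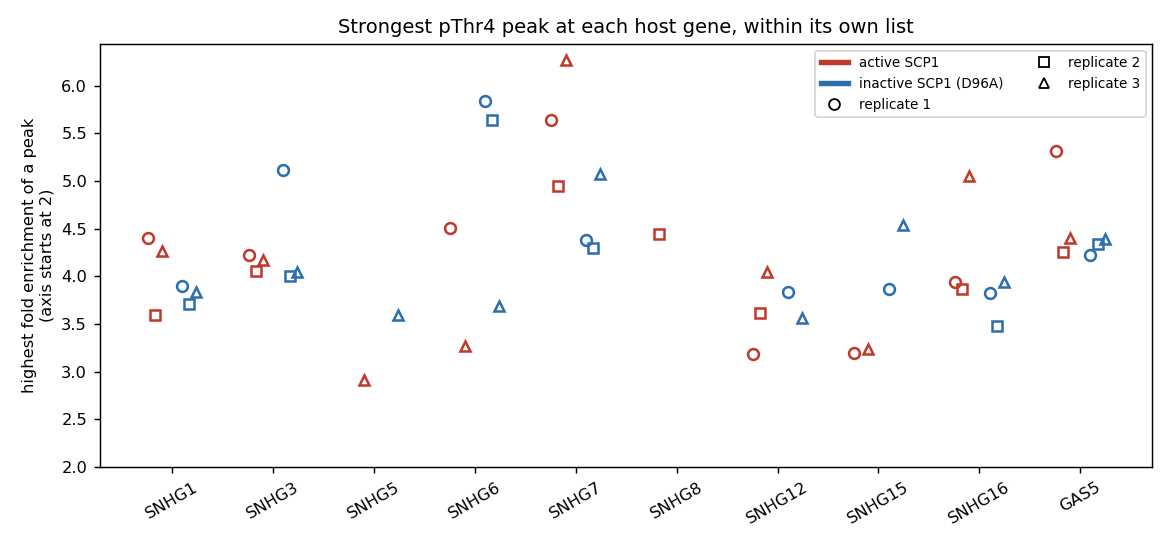
Highest fold enrichment (vertical axis, ratio over background, starting at 2) of any peak in each gene's window, per library, colored and shaped as SCP1 WT (red) and SCP1 D96A (blue) replicates 1 to 3; no marker means no peak. The values run from 2.91 at SNHG5 to 6.27 at SNHG7, and they compare peaks within 1 library only.

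The number of host genes with a peak in the window differed by less than the spread between replicates. It was 8, 7 and 9 of 10 in active replicates 1, 2 and 3 and 8, 6 and 9 in inactive replicates 1, 2 and 3, with means of 8 ± 1 and 7.67 ± 1.53 (SD, n = 3), which differ by 0.333 (two-sided exact permutation test, p = 1). Within replicates 1 and 2 the difference was 0.5. When every list was reduced to the 1163 peaks of lowest p-value, the length of the shortest list, the difference turned to -1.67, and with only peaks of −log10 q of at least 2 it was -0.667. Leaving out active replicate 3 or inactive replicate 2 also turned it, to -0.167 and -0.5. When the gene alone was read, without its flanks, 3, 3 and 5 genes had a peak with active and 2, 2 and 2 with inactive SCP1, a larger difference of 1.67 (exact permutation test, p = 0.1) without overlap of the groups. Among all other genes, 14.9%, 9.41% and 29.9% had a peak in the gene alone with active SCP1. With inactive SCP1 it was 3.97%, 1.78% and 4.29%, again without overlap, so this order is not particular to the host genes.

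The share of window bases that peaks covered was higher with active SCP1 in every library. It was 25%, 23.4% and 33.4% with active and 18.3%, 13.5% and 18% with inactive SCP1, with no overlap between the groups. The active mean of 27.3% ± 5.4 (SD, n = 3) exceeded the inactive mean of 16.6% ± 2.7 (SD, n = 3) by 10.7 percentage points, more than the spread between replicates (two-sided exact permutation test, p = 0.1, the smallest possible). It was 8.3 points within replicates 1 and 2 and 6.88 points with lists of equal length. Cutting the lists to equal length left the edges of the kept peaks as they were, so their widths were not made alike.

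By zone, the difference lay in the gene and behind its end. Genes themselves were covered over 9.02%, 8.77% and 19.1% of their bases with active and 5.12%, 3.37% and 2.34% with inactive SCP1 (means 12.3% ± 5.89 and 3.61% ± 1.41, SD, n = 3; exact permutation test, p = 0.1). In the 5 kb behind the gene end the shares were 42.8%, 39.2% and 51.6% with active and 32.5%, 24.3% and 34.2% with inactive SCP1 (means 44.5% ± 6.38 and 30.3% ± 5.29, SD, n = 3; exact permutation test, p = 0.1). In the 1 kb before the start they were 0%, 2.73% and 0.06% with active and 0% in each inactive library (exact permutation test, p = 0.4). For all other genes only the share of genes with a peak in a zone is at hand, an unlike measure. In the gene, its mean was 18.1% with active and 3.35% with inactive SCP1, against 36.7% and 20% of host genes. In the 5 kb behind the end it was 15% and 4.29%, against 76.7% of host genes with either treatment. Higher values with active SCP1 in these zones are therefore not particular to the host genes.

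Cover behind the end exceeded that of the gene in all 6 libraries, by 33.7, 30.4 and 32.5 percentage points with active and 27.3, 20.9 and 31.8 with inactive SCP1. The excess did not differ beyond the spread of the replicates (difference 5.51 points, exact permutation test, p = 0.2, and 7.94 within replicates 1 and 2). It was 2.1 points with lists of equal length, 2.62 without inactive replicate 2, and 0.75 when only 1 kb behind the end was read.

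Of the 36 snoRNA genes, peaks covered 1, 1 and 3 in active replicates 1, 2 and 3 and 0 in each inactive library. These were SNORA17B in all 3 active libraries and SNORA17A and SNORD74 in replicate 3, each covered over its whole length. The difference of 1.67 genes (exact permutation test, p = 0.1) rested on SNHG7 for the most part, and was 1 without active replicate 3 and likewise 1 within replicates 1 and 2. The other 33 snoRNA genes were covered in no library, among them 24 of the 25 SNORD genes. No share over all annotated snoRNA genes stands beside these counts, so the difference is not read as particular to these snoRNA genes.

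The extra cover with active SCP1 was smaller at the host genes than over the lists as wholes. Peaks covered 24987, 23354 and 33411 bp of the host windows with active and 18275, 13479 and 18020 bp with inactive SCP1, while the whole lists covered 17, 8.94 and 46.8 Mb and 3.02, 1.36 and 3.2 Mb. Active over inactive cover was 1.37, 1.73 and 1.85 in the host windows for libraries of number 1, 2 and 3, set side by side by number only, and 5.63, 6.56 and 14.6 for the whole lists. Per Mb of peaks, the host windows therefore took 1469, 2612 and 714 bp with active and 6054, 9894 and 5632 bp with inactive SCP1 (means 1598 ± 956 and 7193 ± 2348, SD, n = 3; exact permutation test, p = 0.1). The divisor is the cover of the whole list, so this p-value takes in the difference in list length. It is no test of the host genes alone. Median fold enrichment of the listed peaks was 3.39, 3.53 and 3.11 with active and 3.85, 3.89 and 3.84 with inactive SCP1.

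Peaks at the host genes ranked high in their lists. Their median place by −log10 p was above 92.8%, 88.3% and 94.9% of the list with active and 76.6%, 69.3% and 66.6% with inactive SCP1. A place in a list depends on how far down the list reaches, so no difference between the groups is read from these places. The median −log10 p of the host gene peaks themselves was 7.02, 6.68 and 6.17 with active and 6.53, 6.68 and 5.92 with inactive SCP1, and the groups overlapped. On the log2 scale, the median fold enrichment of host gene peaks over that of their own list was 0.267, 0.203 and 0.381 with active and 0.0891, 0.0406 and 0.0159 with inactive SCP1. It was above 0 in 6 of 6 libraries, with a mean of 0.166 ± 0.143 (SD, n = 6; p = 0.03125 by a two-sided exact sign-flip test, which can go no lower with 6 libraries). This call depended on the weak peaks in the lists: the mean was -0.0268 with lists of equal length and -0.0246 with peaks of −log10 p of at least 6 (exact sign-flip tests, p = 0.125 and p = 0.09375). Between the groups it differed by 0.235 (exact permutation test, p = 0.1), and by 0.17 within replicates 1 and 2. With lists of equal length it was -0.0516, -0.045 and -0.0278 with active and -0.0509, 0.0406 and -0.0262 with inactive SCP1. There the groups overlapped, so the difference between the groups also depended on the weak peaks.

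Host genes carried peaks more often than genes at large in every library. The share of the 10 genes with a peak minus that of all other genes was 59.5, 55.9 and 52.4 percentage points with active and 72.5, 56.2 and 82.1 with inactive SCP1. The mean was 63.1 points ± 11.6 (SD, n = 6; two-sided exact sign-flip test, p = 0.03125), and 61 points within replicates 1 and 2. The labels speak of matched aliquots but do not say that equal replicate numbers mark the same lysate, so the 6 libraries may not be independent. Taken as 3 pairs by number, the same mean has an exact p of 0.25, the smallest 3 pairs can give. Adjusted by Benjamini-Hochberg over 6 main results, the exact sign-flip p of this excess and of the fold enrichment above became 0.09375. These 6 were genes with a peak, window cover, covered snoRNA genes, this excess, the fold enrichment, and cover behind against within the gene. Other p-values given here were not part of this adjustment. The excess with active SCP1 was 14.3 points lower (exact permutation test, p = 0.2), with means of 57.7 and 64.3 points within replicates 1 and 2. It was 66.5 points against genes of the same length range (1062 to 7585 bp), and 17.6 when the gene alone was read. The window matters for this last value, since most host gene peaks lie behind the end.

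Other snoRNA host genes carried peaks less often than these 10. Of 524 protein-coding genes that hold a snoRNA gene, 60.8% ± 19.6 had a peak in the window with active and 24.2% ± 4.51 with inactive SCP1 (SD, n = 3). For 106 other lncRNA genes with a snoRNA gene these values were 30.2% ± 15.6 and 11% ± 3.81, for all 19626 protein-coding genes 43.5% ± 18 and 12.8% ± 4.56, and for 12795 lncRNA genes 13.2% ± 11 and 1.97% ± 0.789 (SD, n = 3). The 10 genes had 80% ± 10 and 76.7% ± 15.3. Nearest to them among lncRNA genes came a list of 18 further snoRNA hosts, with 59.3% ± 11.6 and 33.3% ± 20 (SD, n = 3). They exceeded the protein-coding hosts by 35.8 points and the other lncRNA hosts by 57.7 points on average over the 6 libraries, in 6 of 6 libraries each (exact sign-flip test, p = 0.03125), a pair of comparisons chosen after the data were seen. The nearest approach was in active replicate 3, with 90% against 82.4% of protein-coding hosts.

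**Figure D4:**
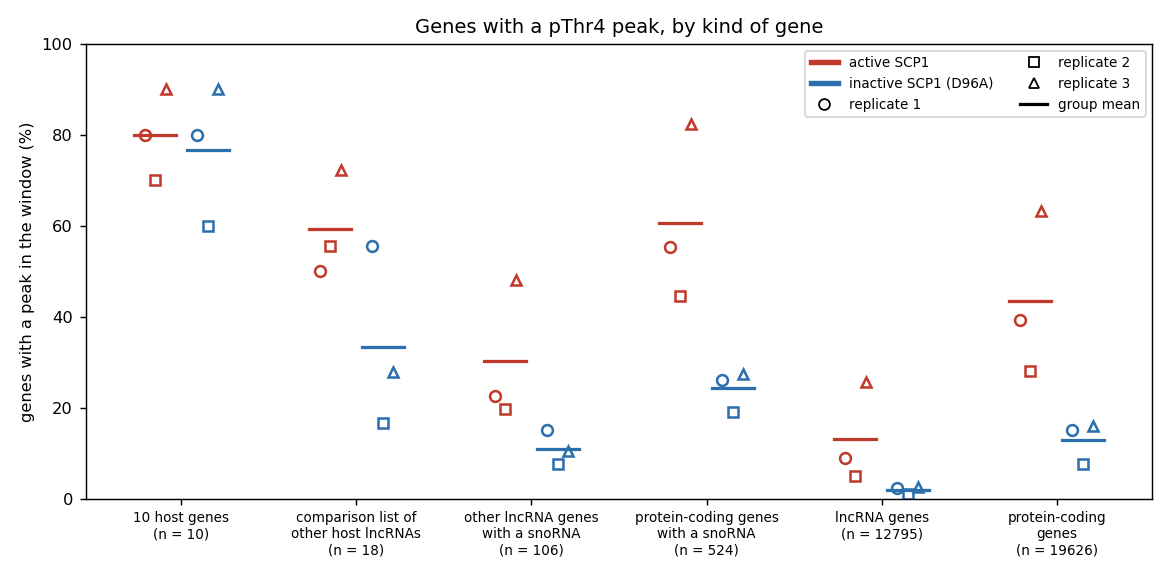
Share of genes with a peak in the window (vertical axis, %) for the 10 host genes and 5 other kinds of gene, per library, with SCP1 WT in red, SCP1 D96A in blue, a marker shape per replicate and a line at each group mean. The 10 host genes sit between 60% and 90% in all libraries, while protein-coding hosts sit at 44.5% to 82.4% with WT and 19.1% to 27.5% with D96A.

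Counted over libraries, 5 of the 10 genes had a peak in all 6 (SNHG1, SNHG3, SNHG7, SNHG16 and GAS5), against 3.29% of the 47054 genes, 6.53% of protein-coding genes, 0.914% of lncRNA genes and 16.8% of protein-coding hosts. At least 2 of 3 libraries of each group held a peak for 8 of the 10 genes, all but SNHG5 and SNHG8, against 6.01% of all genes. No host gene had a peak in 3 active and 0 inactive libraries, a pattern that 4.21% of all genes showed, so at 10 genes a count of 0 lies near the background. Covered bases were higher in every active than in every inactive library for 3 of the 10 genes (SNHG7, SNHG16 and GAS5), against 10.7% of all genes. Among the 1550 genes with a peak in all 6 libraries, however, 77.4% showed that order, compared with 3 of these 5 host genes.

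Host genes and protein-coding genes were both covered most within the first 1400 bp behind the gene end. In steps of 100 bp along the gene and its flank, cover of host genes was highest at 600 to 1400 bp behind the gene end, where the highest share of genes in a peak was 70%, 60% and 80% with active and 60%, 60% and 80% with inactive SCP1, at places that varied between libraries. Protein-coding genes were covered most at 700 to 1000 bp behind the end, at 12.9%, 9.08% and 20.2% with active and 4.36%, 2.13% and 4.48% with inactive SCP1. At fixed places, host gene means were 63.3% with both treatments at 700 bp, and 70% with active against 46.7% with inactive SCP1 at 1000 bp. At 5000 bp behind the end, the share of host genes in a peak was 20%, 10% and 40% in the active libraries against 0%, 10% and 0% in the inactive ones. With 10 genes each step of 10% is a single gene.

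**Figure D5:**
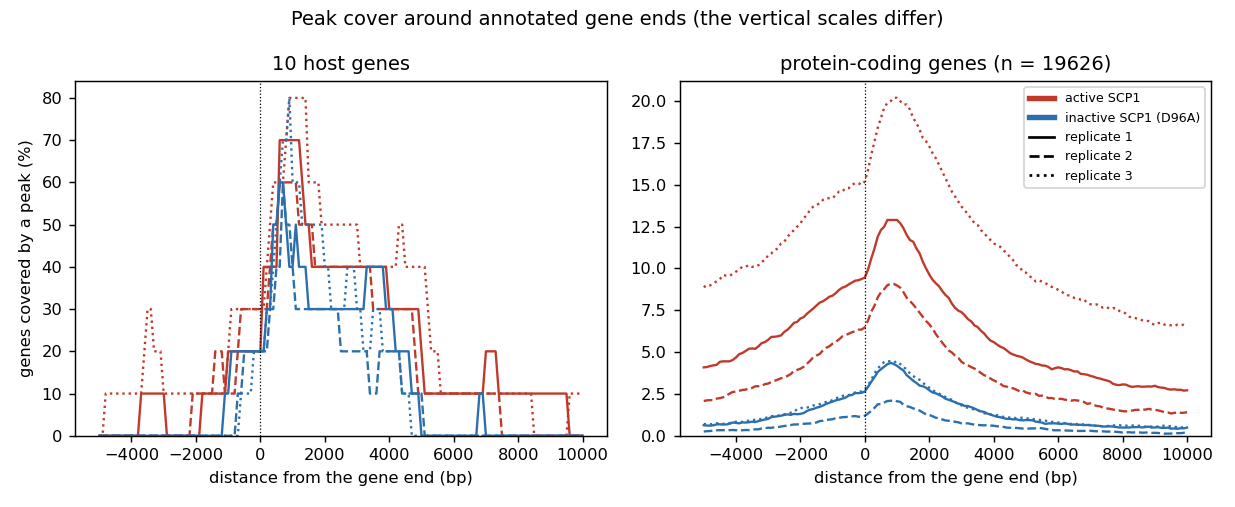
Share of genes covered by a peak (vertical axis, %; the scales of the panels differ) by distance from the annotated gene end in bp, for the 10 host genes (left) and 19626 protein-coding genes (right), with SCP1 WT in red, SCP1 D96A in blue and a line style per replicate. Both panels rise just behind the gene end; the lines of the host genes reach 60% to 80% in all libraries, and those of protein-coding genes 9.08% to 20.2% with WT and 2.13% to 4.48% with D96A.

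A further list of 18 lncRNA snoRNA hosts served as comparison. Of these, 14 had a peak in any library, a count for which no share over all genes is given. A peak in all 6 libraries was found for 3 of the 18, against 3.29% of all 47054 genes. For 6 of the 18, covered bases were higher in every active than in every inactive library, against 10.7% of all genes. SNHG17 was covered over 5845, 6441 and 8759 bp with active and 3393, 1966 and 2184 bp with inactive SCP1. SNHG29 was covered over 9649, 7939 and 21689 bp and over 3813, 2455 and 4488 bp. ZFAS1, a host of box C/D snoRNAs, was covered over 1574, 2398 and 3914 bp and over 1266, 575 and 1512 bp. In these 3 genes, as in GAS5, SNHG7 and SNHG16, all active values lay above all inactive ones. These 3 are the genes of the list with peaks in all 6 libraries. Of the 1550 genes with such peaks, 77.4% showed that order, so it is not particular to hosts.

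SNHG4 (1948, 1740 and 3382 bp with active, 1066, 0 and 1265 bp with inactive SCP1) and SNHG32 (4045, 2470 and 3934 bp with active, 2480, 0 and 2518 bp with inactive SCP1) had peaks in 5 libraries. They differed in overlap, since the lowest active value of SNHG32 lay below its inactive replicates 1 and 3. SNHG14, named after its values were seen, was the single gene of the list with peaks in 3 active libraries (675, 2072 and 2222 bp) and in 0 inactive ones. It spans chr15:24823608-25419462, so these peaks covered a small part of a very long window. This pattern was shown by 4.21% of all genes, so 1 gene of 18 lies near the background.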

How the data were processed

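Peak lists of 6 pThr4 ChIP-seq libraries of HEK293 were used, 3 per group. Libraries were sequenced as paired-end reads; the submitters' processing notes name FastQC, cutadapt 4.6 and Bowtie2 2.5.2 and the build hg38. The peak caller's version, its control and its read filters are not given in the sources used here. The layout is that of MACS broad peaks, called per library. The authors deposited, per peak, a score (not used here), a fold enrichment (a ratio averaged over the peak) and p and q, both as −log10 values. The lowest −log10 q-value was just above 1 in each list, as a q cutoff of 0.1 leaves it. Since q is set within a list, weak peaks enter longer lists. Depth is unknown, so precision rests on 3 replicates.

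Peaks on chromosomes 1 to 22 and X were set against RefSeq genes (GRCh38.p14) with an overlap of at least 1 bp. Strand came from the RefSeq promoter table or, by gene name, from GENCODE (SNHG6 and SNHG15), for 79.6% of 59094 genes. The RefSeq table gave no exons, so exons and introns are not told apart. A p-value measures the spread between these libraries. Groups were compared by exact permutation, and values over 6 libraries by exact sign flips, in Python 3.11.15 with NumPy 2.4.6, pandas 2.3.3, SciPy 1.17.1 and matplotlib 3.10.9; the code was tested on simulated data. Alternatives were a −log10 q of at least 2, the 1163 strongest peaks per list, a −log10 p of at least 6, other windows and overlaps, other comparison genes, each library left out, replicate pairs, and replicates 1 and 2 alone. Named were all 10 genes, their snoRNA genes, the neighbors that their peaks overlap and, from a list of 18 other hosts, the 5 with peaks in most libraries; SNHG14 of that list was added after its values were seen. Genes and lists were chosen with earlier results of these data known.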

Additional observations from a re-analysis of the deposited data

How the results depend on the processing

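Cover of the host windows (13 alternatives), the count of covered snoRNA genes (12) and cover behind against within the gene (12) kept their direction and their side of the threshold, which the group test cannot pass at 0.05. The number of host genes with a peak differed by 0.333 between groups and by -0.667 with −log10 q of at least 2, by -1.67 with lists of equal length, by 1.67 with the gene alone, and by -0.5 to 1 with a library left out. The excess over all genes was 59.3 to 65.2 points with a library left out (exact p of 0.0625, the smallest that 5 libraries allow) and 61 within replicates 1 and 2 (0.125). The log2 fold enrichment over the own list (0.166) was 0.0668 with −log10 q of at least 2 (exact p = 0.3438), -0.0268 with lists of equal length, -0.0246 with the common p cutoff, 0.123 to 0.196 with a library left out, and 0.15 within replicates 1 and 2. With the replicate number as a block, these values were 63.1 points and 0.166, with an exact p of 0.25, the smallest for 3 pairs, and no other call changed. Deviations of same-numbered libraries correlated over genes at -0.03, 0.36 and 0.23, so the data do not show pairing for replicate 1. The 2 other comparison gene sets were added after the data were seen. The gene alone gives no value behind the gene end. Unknown depth limits what absence of a peak can mean.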
